A study of Mus musculus with 10 samples.

Results

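Sln, Myl7, Myl4, Bmp10 and Nppa are muscle genes whose transcripts are known in the adult mouse heart chiefly from the atria. They were selected by symbol, 5 genes of the 31655 gene rows in the count table, and each passed the filter on low counts that left 16850 genes for testing. RNA sequencing was done on cardiac tissue of mice with septic cardiomyopathy, a heart muscle dysfunction induced here by lipopolysaccharide (LPS), the outer membrane component of Gram-negative bacteria. The 5 libraries called baicalin plus LPS came from mice given baicalin, a flavone glucuronide of Scutellaria root, by gavage at 100 mg/kg for 14 days and then a single intraperitoneal injection of LPS at 10 mg/kg. The 5 libraries called LPS came from mice given distilled water by gavage and then the same injection, and all hearts were taken 72 hours after it. Both groups therefore had the LPS injection. The design also names a group given saline in place of LPS, which is not analysed here, and 8 mice a group. The labels give neither strain, sex nor age, say only that the tissue is cardiac, with no chamber, and tie no library to a mouse, so the spread between libraries may be partly technical.

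Atrial and ventricular cardiomyocytes use different myosin light chains. Myl7 encodes the atrial regulatory light chain and Myl4 the atrial essential light chain, where ventricular muscle uses the products of Myl2 and Myl3. Sln encodes sarcolipin, a small membrane peptide that inhibits the sarcoplasmic reticulum calcium pump, a part played in ventricular muscle mainly by phospholamban (Pln). Nppa and Bmp10 encode secreted proteins made by atrial muscle. The Nppa product is the precursor of atrial natriuretic peptide, which is released when atria are stretched and is also made by ventricular muscle under stress. The Bmp10 product is a ligand of the transforming growth factor family, acts through the endothelial receptor ALK1 and comes, in the adult heart, mainly from the right atrium.

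The genes were chosen because of how they stood in these libraries, so their levels and fold changes are given as a description without a test. Where no group is named, libraries 2 and 3 are those of baicalin plus LPS. All 5 genes stood highest in baicalin plus LPS library 2 and next highest in baicalin plus LPS library 3. Myl7, Myl4, Sln and Bmp10 were at 0.0765 to 2.38 CPM (counts per 1000000, with TMM scaling of the library totals) in the other 8 libraries, and at 56.5 to 169.8 CPM in library 2 and 11.2 to 38.8 CPM in library 3. Nppa was well above that floor in every library. With libraries 2 and 3 left out, the log2 fold changes of baicalin plus LPS over LPS ran from -0.23 to 0.68 with standard errors of 0.32 to 0.62.

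The 3 promoter stretches below are shown because they carry motifs of factors that heart muscle uses, and because their genes stood highest in libraries 2 and 3. They are the 250 bases before the annotated start of Nppa (chr4:148000472-148000721, plus strand), Bmp10 (chr6:87428744-87428993, plus strand) and Myl7 (chr11:5898783-5899032, minus strand), 5′ to 3′, from RefSeq on build GRCm38.p6. Capitals mark matches on either strand to 5 motifs. GATA factors were searched as GATAA, the homeodomain factor NKX2-5 as AAGTG and T-box factors as AGGTGT. The core promoter box was searched as TATAAA, and the CArG box of serum response factor by its consensus.
Nppa: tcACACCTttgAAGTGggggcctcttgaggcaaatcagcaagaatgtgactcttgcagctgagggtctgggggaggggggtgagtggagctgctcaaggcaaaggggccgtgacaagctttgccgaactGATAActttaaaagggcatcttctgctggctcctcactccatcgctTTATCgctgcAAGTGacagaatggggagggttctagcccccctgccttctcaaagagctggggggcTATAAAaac
Bmp10: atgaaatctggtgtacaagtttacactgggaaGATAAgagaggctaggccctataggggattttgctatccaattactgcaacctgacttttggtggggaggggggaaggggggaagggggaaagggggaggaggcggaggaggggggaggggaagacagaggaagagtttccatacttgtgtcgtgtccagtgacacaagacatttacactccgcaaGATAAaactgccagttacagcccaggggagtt
Myl7: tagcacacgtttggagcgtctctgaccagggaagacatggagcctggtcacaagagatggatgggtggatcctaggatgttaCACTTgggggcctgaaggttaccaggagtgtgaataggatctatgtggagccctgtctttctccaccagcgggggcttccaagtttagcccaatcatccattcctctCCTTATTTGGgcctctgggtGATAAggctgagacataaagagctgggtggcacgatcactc
The Nppa stretch holds GATAA at 121 and 75 bases before the start, AAGTG at 239 and 65, AGGTGT on the reverse strand at 248, and TATAAA at 9. Bmp10 has GATAA at 218 and 32 bases before the start and no other match. Myl7 has a CArG box at 61 bases before the start, GATAA at 41 and AAGTG on the reverse strand at 168. Over the window from 250 bases before to 50 after the start, GATAA was present in 25.4% of 32851 RefSeq promoters, AAGTG in 46.4%, AGGTGT in 13.7%, TATAAA in 13.6%, the CArG box in 1.63% and the MEF2 motif, which matched in none of the promoters of these genes, in 0.557%. The Myl4 promoter entry, which had AAGTG at 2 places and no other match, belongs to the first of its 8 annotated transcripts, and the other 7 start 24783 or more bases downstream, so it is not printed. Sln was not among the promoter entries. Matches to such short motifs are frequent by themselves and describe only the letters.

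Library totals ran from 39396357 to 75744274 counts, averaging 51775831 ± 8312773 in baicalin plus LPS and 62284072 ± 12519188 in LPS (SD, n = 5 each; two-sided exact permutation test of the means, p = 0.135). Mitochondrially encoded transcripts took 40.5 ± 2.89% of counts in baicalin plus LPS and 39.1 ± 5.61% in LPS (SD, n = 5 each; p = 0.651, same exact test). Several libraries stood apart. Baicalin plus LPS libraries 2 and 3 shared the pattern described here, and LPS libraries 1, 2 and 3 were low in neutrophil transcripts (summed level of 8 markers 2.03 to 5.44 CPM, against 32.4 to 174 CPM in the other 7 libraries). Between the groups, edgeR's quasi-likelihood test called 0 of 16850 genes at a Benjamini-Hochberg adjusted p under 0.05 (0% of genes tested). At an unadjusted p under 0.05 it found 1878 (11.1%), of which 887 were higher (5.26%), and DESeq2 called 267 of 14868 at an adjusted p under 0.05 (1.8%).

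Myl7, the atrial regulatory light chain, is on chromosome 11 (5896637 to 5898782, minus strand, GRCm38). Its level in baicalin plus LPS libraries 1, 2, 3, 5 and 7 was 1.04, 132, 27.7, 1.11 and 1.51 CPM, against 0.527, 0.992, 0.67, 2.23 and 0.749 CPM in LPS libraries 1 to 5. Libraries 2 and 3 of baicalin plus LPS were far above all others, while the remaining 3 lay among the LPS libraries, so the groups overlapped. The means were 32.6 ± 56.6 CPM in baicalin plus LPS and 1.03 ± 0.69 CPM in LPS (SD, n = 5 each), the SD of baicalin plus LPS exceeding its mean. The fitted log2 fold change was 5.0 ± 1.40 (SE). Without libraries 2 and 3, baicalin plus LPS averaged 1.22 ± 0.256 CPM (n = 3) and the log2 fold change was 0.25 ± 0.46. LPS library 4 was the highest of its group at 2.23 CPM, which is 107 counts.

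Myl4, the atrial essential light chain, lies on the same chromosome (104550663 to 104595753, plus strand). It measured 2.04, 169.8, 38.8, 1.15 and 1.82 CPM in baicalin plus LPS, in the same order of libraries, against 1.44, 2.08, 1.09, 2.38 and 0.682 CPM in LPS. Again libraries 2 and 3 stood alone and the groups overlapped. Mean levels were 42.7 ± 72.8 CPM in baicalin plus LPS and 1.53 ± 0.697 CPM in LPS (SD, n = 5 each), with a log2 fold change of 4.81 ± 1.36. It was 0.12 ± 0.41 without libraries 2 and 3, which left a mean of 1.67 ± 0.464 CPM in baicalin plus LPS (n = 3). Genes on the opposite strand overlap Myl4 (Gm11665, Gm22000, Gm11661 and Gm11663) and whether counting used strand is not given in the sources used here, but none of the 4 exceeded 0.515 CPM in any library.

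Sln, the calcium pump inhibitor sarcolipin, is on chromosome 9 (53850164 to 53854560, plus strand). Sln stood at 0.303, 56.5, 11.2, 0.159 and 0.123 CPM in baicalin plus LPS, against 0.14, 0.46, 0.153, 0.292 and 0.0803 CPM in LPS. The 2 high libraries held 3845 and 679 counts, whereas the other 8 held 6 to 32 counts each and interleaved. Averages came to 13.7 ± 24.4 CPM in baicalin plus LPS and 0.225 ± 0.152 CPM in LPS (SD, n = 5 each), and the log2 fold change to 5.91 ± 1.67. When libraries 2 and 3 were left out, it was -0.23 ± 0.62, with 0.195 ± 0.0954 CPM in baicalin plus LPS (n = 3). At so few counts the level outside libraries 2 and 3 is known only coarsely.

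Nppa, the atrial natriuretic peptide precursor, is on chromosome 4 (148000722 to 148002079, plus strand). Baicalin plus LPS libraries had 169, 789, 254, 58.4 and 135 CPM of Nppa, against 82.7, 113, 88.5, 89.2 and 142 CPM in LPS libraries. Library 2 was highest, library 3 next, then library 1, while library 5 was the lowest of all 10, so the baicalin plus LPS range contained the LPS range. The means were 281 ± 292 CPM in baicalin plus LPS and 103 ± 24.6 CPM in LPS (SD, n = 5 each), and the log2 fold change was 1.45 ± 0.56. With libraries 2 and 3 left out the mean of baicalin plus LPS was 121 ± 56.5 CPM (n = 3) and the log2 fold change 0.23 ± 0.32. Library 3 exceeded the highest of the other 8 libraries by 1.5 times only. Gm13054, annotated antisense to Nppa, reached at most 0.603 CPM.

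Bmp10, the atrial ligand of ALK1, is on chromosome 6 (87428994 to 87437677, plus strand). Its values were 0.454, 65.7, 12.1, 0.278 and 0.368 CPM in baicalin plus LPS, against 0.14, 0.345, 0.0765, 0.417 and 0.161 CPM in LPS. Library 2 had 4467 counts and library 3 had 738, against 4 to 24 in each of the other 8, where baicalin plus LPS and LPS overlapped. The group means were 15.8 ± 28.4 CPM in baicalin plus LPS and 0.228 ± 0.145 CPM in LPS (SD, n = 5 each), and the log2 fold change was 6.11 ± 1.60. Without libraries 2 and 3 it was 0.68 ± 0.54, with a mean of 0.367 ± 0.0882 CPM in baicalin plus LPS (n = 3), the largest remaining difference among the 5 genes.

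**Figure D1:**
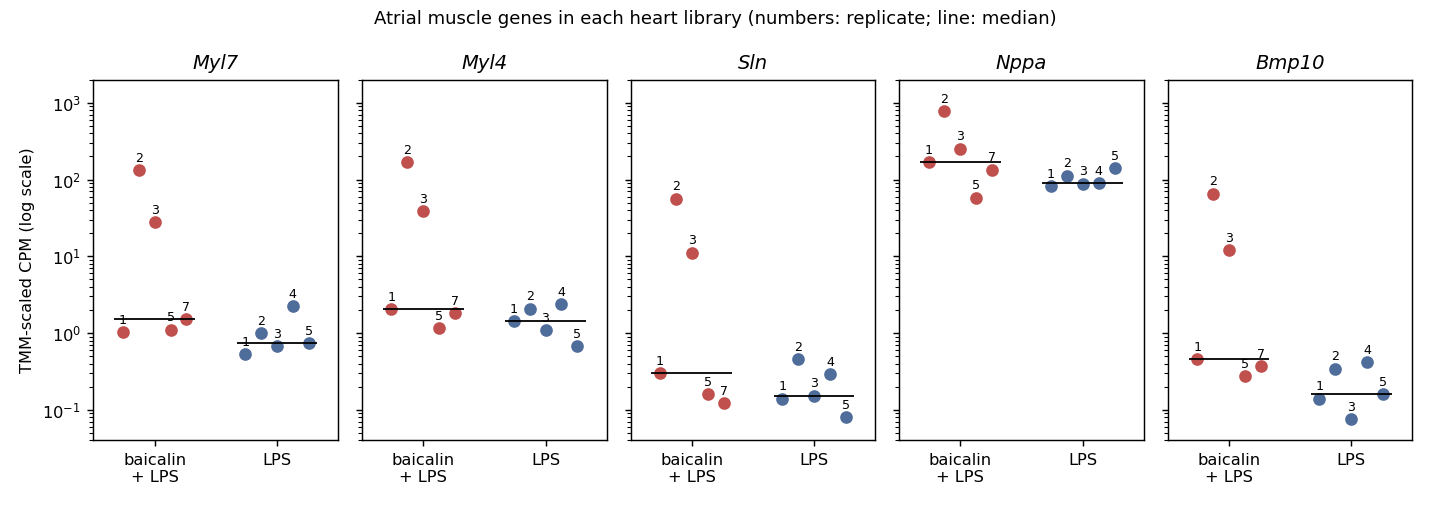
Level of each atrial muscle gene in each library (TMM-scaled CPM, log axis), with baicalin plus LPS left of LPS; numbers are replicate numbers and lines are group medians. Baicalin plus LPS libraries 2 and 3 lie above all others for the 5 genes, and the remaining 8 libraries of both groups overlap.

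Counted over the 5 genes, 0 had groups that did not overlap, where 2.46% of all genes tested had (0.878% with baicalin plus LPS higher). The median log2 fold change of the 5 was 5.0, against 0.00 over all genes, and 0.23 without libraries 2 and 3, with 4 positive and 1 negative. A log2 fold change of at least 1 in the higher direction was seen for all 5 and for 2.42% of genes tested. Both libraries 2 and 3 were above the other 8 for 5 of 5 genes and for 10.3% of genes tested, and at least 2-fold above them for 4 of 5 and for 0.374%. These shares are background only, since the genes were selected on this pattern. Leaving out baicalin plus LPS library 2 alone, with library 3 kept, gave log2 fold changes of 2.94 for Myl7, 2.84 for Myl4, 3.70 for Sln, 0.58 for Nppa and 3.86 for Bmp10. Leaving out the neutrophil-poor LPS libraries 1, 2 and 3 instead gave 4.49, 4.85, 6.31, 1.29 and 5.85 in the same order.

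**Figure D2:**
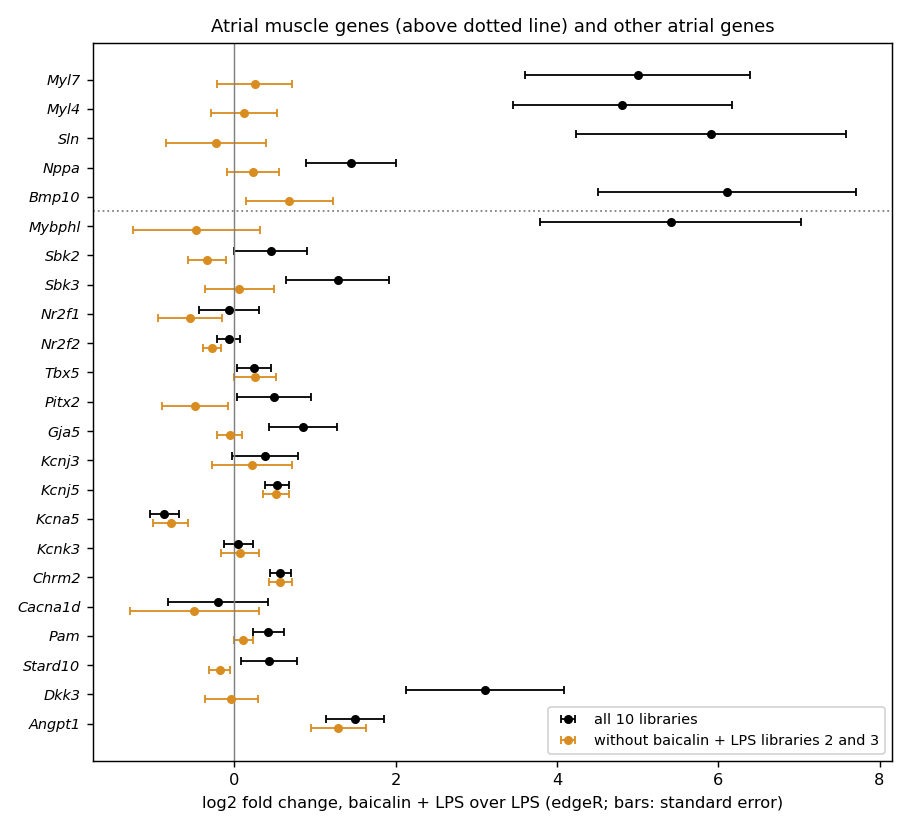
Log2 fold change of baicalin plus LPS over LPS (x axis, edgeR) for the 5 atrial muscle genes and 18 other atrial genes; bars are standard errors, black with all 10 libraries, orange without baicalin plus LPS libraries 2 and 3. The atrial muscle genes lie between 1.45 and 6.11 in black and between -0.23 and 0.68 in orange.

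The ratio between the excess in library 2 and that in library 3 was similar across the genes. Library 2 was 130 times the median of the other 8 libraries for Myl7, 104 times for Myl4, 363 times for Sln, 211 times for Bmp10 and 7.81 times for Nppa. Library 3 was 27.3, 23.8, 71.6, 38.9 and 2.51 times that median in the same order of genes. After the median of the other 8 was subtracted, library 2 held 4.90 times the excess of library 3 for Myl7, 4.52 times for Myl4, 5.12 times for Sln, 5.53 times for Bmp10 and 4.51 times for Nppa. The 5 ratios therefore span 4.51 to 5.53, although the levels of the genes differ widely.

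Compared per gene length, in FPKM as deposited, the order of the genes was the same in both libraries. Nppa was highest at 1040 FPKM in library 2 and 320.1 in library 3, then Myl7 at 255 and 51.2, Sln at 49.0 and 9.25, Myl4 at 41.8 and 9.14, and Bmp10 at 16.7 and 2.95. Sln and Myl4 were next to each other and nearly equal in library 3, and their order rests on the gene lengths behind the deposited FPKM, since Myl4 had the higher CPM in both libraries. In the other 8 libraries the median was 117 FPKM for Nppa (59.7 to 196), 1.61 for Myl7 (0.821 to 4.21), 0.346 for Myl4 (0.156 to 0.571), 0.104 for Sln (0.0644 to 0.321) and 0.0627 for Bmp10 (0.0149 to 0.103). There Myl4 was above Sln, but the ranges of Myl4 and Sln overlapped, as did those of Sln and Bmp10.

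Together the 5 genes took 173, 1383, 375, 54.1 and 144 of every 1000000 counts in baicalin plus LPS libraries, against 78.1, 107, 78.9, 105 and 152 in LPS libraries. The 4 genes other than Nppa took 3.86, 484, 98, 2.39 and 3.96 in baicalin plus LPS, against 2.07, 3.56, 1.73, 5.92 and 1.77 in LPS. Thus Nppa supplied most of the counts of the 5 genes in every library, and its share was lowest where the other 4 were highest: 65.0% of their summed CPM in library 2 and 73.8% in library 3. In pieces of bulk tissue, a larger number of cells of a type and more RNA per cell cannot be told apart.

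Over the 10 libraries the log2 levels of the 5 genes correlated with Pearson's r of 0.874 to 0.991 in the 10 pairs. Over the 8 libraries other than 2 and 3 the r ran from 0.05 to 0.79, with a median of 0.47. Sln with Myl4 gave 0.79 and Myl7 with Bmp10 gave 0.78 there, whereas the 4 pairs with Nppa gave 0.05 to 0.31. These values are descriptive; libraries share depth and composition, and Sln and Bmp10 rest on 32 counts or fewer in those 8 libraries.

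**Figure D3:**
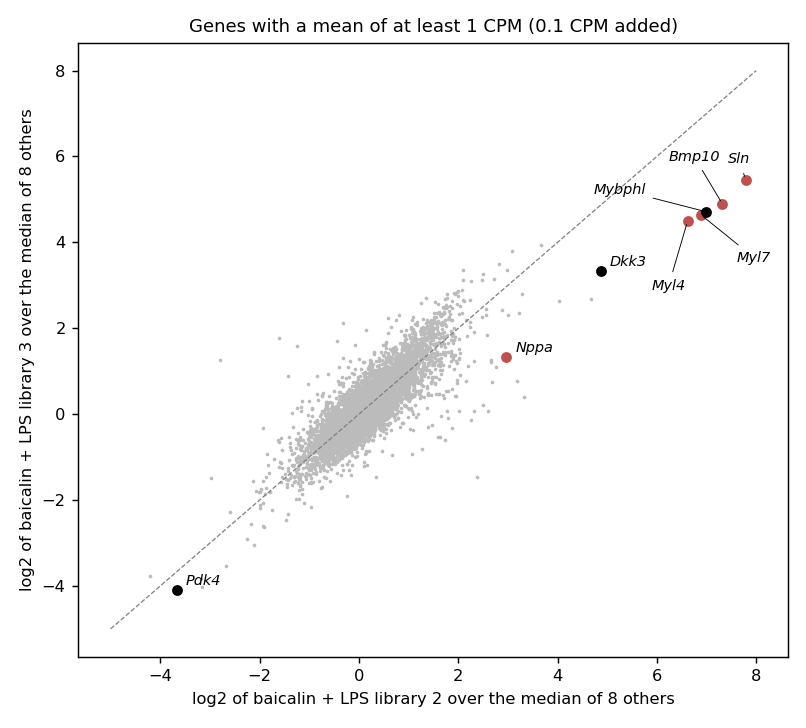
Each of 13217 genes with a mean of at least 1 CPM, by its log2 ratio to the median of the 8 other libraries in baicalin plus LPS library 2 (x axis) and library 3 (y axis), after adding 0.1 CPM; red points are atrial muscle genes, black points other named genes, the dashed line marks equal ratios. Most genes lie between the 1st and 99th percentiles of -1.12 and 1.71 on the x axis, while Myl7, Myl4, Sln and Bmp10 lie at the upper right with Mybphl.

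Among the 12024 genes eligible by symbol and level, the 10 whose log2 levels followed the 5 genes most closely over the 10 libraries included, by mean Pearson's r, Mybphl (0.95), Fzd2 (0.935), Col23a1 (0.931), Slc25a10 (0.929), Dkk3 (0.923), Camk1d (0.92), Rcsd1 (0.918), Enpp6 (0.916) and Igfbp5 (0.915). Mybphl, a myosin-binding protein of the atria and conduction system, measured 0.202, 32.2, 6.61, 0.119 and 0.0817 CPM in baicalin plus LPS, against 0.0351, 0.244, 0.191, 0.417 and 0.0535 CPM in LPS. It repeated the pattern of the atrial muscle genes, including an excess in library 2 that was 4.96 times that in library 3. The others differed less in size: Igfbp5, an insulin-like growth factor binding protein, had 341 and 209 CPM in libraries 2 and 3 and 69.3 to 111 CPM elsewhere, and Rcsd1 103 and 89.9 CPM against 68.7 to 77.5 CPM. By Spearman's rho in place of Pearson's r, 0 of the 10 genes stayed among the top 10.

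Other genes known from the atria behaved unevenly. Of 18 listed, 18 were tested, 14 had a positive and 4 a negative log2 fold change, the median was 0.44 against 0.00 over all genes, and 0 passed edgeR's test (smallest adjusted p = 0.241). At an unadjusted p under 0.05, 5 were higher and 1 lower, and DESeq2 called 4: Mybphl, Angpt1 and Chrm2 higher and Kcna5 lower. Over all genes tested, 887 of 16850 were higher (5.26%) and 991 lower at that threshold, and DESeq2 called 267 of 14868 (1.8%). The same shares are the background for the gene lists that follow. Without libraries 2 and 3 there were 8 positive and 10 negative, with a median of -0.05. Both libraries 2 and 3 were at least 2-fold above the other 8 for Mybphl and Dkk3 (2 of 18, against 0.374% of genes tested).

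Dkk3, a secreted glycoprotein of the Dickkopf family, had 3.31, 79.0, 27.0, 2.22 and 2.17 CPM in baicalin plus LPS, against 3.77, 2.86, 2.87, 1.27 and 2.36 CPM in LPS. Its groups overlapped, and its log2 fold change of 3.11 ± 0.98 was -0.04 ± 0.33 without libraries 2 and 3. Gja5, the connexin of atrial and conduction muscle, had 23 CPM in library 2 and 8.73 CPM in library 3. Elsewhere it had 4.11 to 6.15 CPM, and its excess in library 2 was 4.92 times that in library 3. This ratio was not shared by all listed atrial genes, being 3.13 for Dkk3, 2.80 for Pam and 11.3 for Sbk3.

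Sbk2 and Stard10 were high in library 2 alone. Sbk2, an atrial kinase gene, had 22.3 CPM there and 5.69 CPM in library 3, which lay inside the 4.09 to 9.10 CPM of the other libraries. Stard10, a lipid transfer protein gene, likewise had 33.8 CPM in library 2 and 10.4 CPM in library 3, against 8.82 to 11.8 CPM. Pam, the peptide-amidating enzyme abundant in atrial granules, was highest in both, with 999.6 CPM in library 2 and 685 CPM in library 3, against 433 to 561 CPM elsewhere.

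Genes of atrial identity and of the acetylcholine-gated potassium channel did not follow the pattern in this way. Nr2f2, the COUP-TFII transcription factor of atrial identity, had a log2 fold change of -0.07 ± 0.14, with 13.8 and 11.4 CPM in libraries 2 and 3 and 8.40 to 11.6 CPM elsewhere. Tbx5, a T-box factor of atria and left ventricle, had 0.24 ± 0.21 and was highest in baicalin plus LPS library 5. Kcnj3 and Kcnj5, the channel's subunits, had 0.38 ± 0.41 and 0.53 ± 0.15, and the value of Kcnj5 was 0.52 ± 0.16 without libraries 2 and 3. Chrm2 and Kcna5, named after their values were seen, were the atrial genes whose groups did not overlap (1 of 18 higher and 1 lower, against 2.46% of genes tested in either direction). Chrm2, the cardiac muscarinic receptor, had 157 to 203 CPM in baicalin plus LPS and 107 to 149 CPM in LPS, a log2 fold change of 0.57 ± 0.13 (edgeR adjusted p = 0.244). Kcna5, a potassium channel gene placed in the atrial list, had 10.5 to 17.5 CPM in baicalin plus LPS and 17.8 to 29.6 CPM in LPS. Its log2 fold change was -0.87 ± 0.18 (edgeR adjusted p = 0.241). It was highest in LPS libraries 1, 2 and 3, at 29.6, 26.8 and 29.3 CPM, and had 10.9 CPM in library 2 of baicalin plus LPS. Angpt1, the ligand angiopoietin 1, likewise named after its value was seen, had 40.9 to 123 CPM in baicalin plus LPS and 13.5 to 42.1 CPM in LPS (1.50 ± 0.36, adjusted p = 0.259; 1.29 ± 0.34 without libraries 2 and 3).

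**Figure D4:**
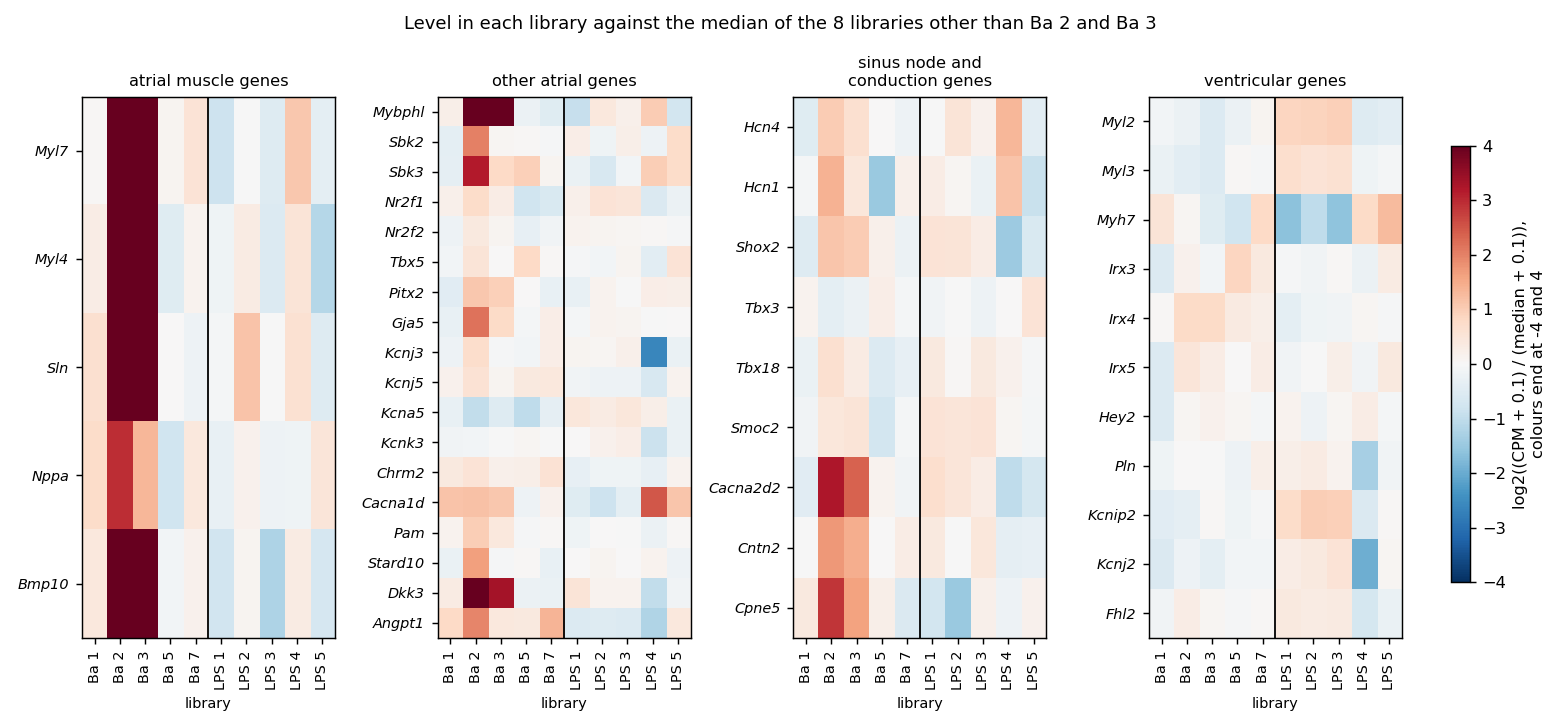
Log2 ratio of each gene's CPM to the median of the 8 libraries other than baicalin plus LPS 2 and 3 (0.1 CPM added to both), by library (columns; Ba, baicalin plus LPS, left of the line; LPS right of it) for 4 gene lists; the colour scale is cut at its labelled ends. The atrial muscle genes, apart from Nppa, and Mybphl are at or near the upper end of the scale in Ba 2 and Ba 3, as is Dkk3 in Ba 2; the ventricular gene Irx4 is also highest there, at 1.69 and 1.70 times the median.

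The ventricular light chains Myl2 and Myl3 were at 1691 CPM or more in every library, libraries 2 and 3 included. Other listed ventricular genes differed widely in level, for example Hey2 at 3.53 to 6.42 CPM and Myh7 at 305 to 2313 CPM. Of 12 listed, 11 were tested, 5 positive and 6 negative, with a median log2 fold change of -0.04 (-0.13 without libraries 2 and 3); 0 passed edgeR's test (smallest adjusted p = 0.299). At an unadjusted p under 0.05, 1 was higher and 3 lower, and DESeq2 called 1, Irx4. Myl2, the ventricular partner of Myl7, had 2839, 2610, 2076, 2591 and 3269 CPM in baicalin plus LPS, against 5569, 5645, 5936, 2137 and 2293 CPM in LPS. LPS libraries 1, 2 and 3 were the high ones, the groups overlapped, and the log2 fold change was -0.69 ± 0.30. Myl3, the partner of Myl4, was also highest in LPS libraries 1, 2 and 3 and had -0.59 ± 0.21. Its lowest levels were in baicalin plus LPS libraries 2 and 3, at 1853 and 1691 CPM against 2052 CPM or more elsewhere. Pln, the ventricular counterpart of Sln, had 0.03 ± 0.26. Without LPS libraries 1, 2 and 3 the direction of Myl2 turned to 0.28, while Myl3 had -0.09, Pln 0.60 and the list a median of 0.16.

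Myh7, the slow myosin heavy chain, and Hey2, a repressor of atrial genes in ventricular muscle, had log2 fold changes of 0.07 ± 0.58 and -0.10 ± 0.16. Irx4, a ventricular transcription factor, had 37.2 and 37.5 CPM in libraries 2 and 3, against 16.8 to 28.0 CPM elsewhere (0.58 ± 0.15, adjusted p = 0.299), and was the single ventricular gene tested with both libraries above the other 8 (1 of 11, against 10.3% of genes tested). Of the muscle genes shared by atria and ventricles, 11 of 12 had a negative log2 fold change, as had 8519 of the 16850 genes tested, with a median of -0.37 and 0 passing edgeR's test (smallest adjusted p = 0.272; 4 lower at an unadjusted p under 0.05, and DESeq2 called 1 lower, the creatine kinase gene Ckm). Among them Myh6, the alpha myosin heavy chain, had -0.28 ± 0.23, Tnni3, cardiac troponin I, -0.41 ± 0.28, Actc1, cardiac actin, -0.35 ± 0.46 and Ttn, titin, -0.49 ± 0.19. Without LPS libraries 1, 2 and 3 the values were 0.34 for Myh6, 0.44 for Tnni3, 1.0 for Actc1 and -0.02 for Ttn.

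Of 11 genes of the sinus node and conduction system, 9 were tested, 5 positive and 4 negative, with a median log2 fold change of 0.16 (-0.25 without libraries 2 and 3) and 0 passing (smallest adjusted p = 0.339; 3 higher and 0 lower at an unadjusted p under 0.05; 0 with DESeq2). Cacna2d2, Cntn2 and Cpne5 were at least 2-fold above the other 8 libraries in both libraries 2 and 3 (3 of 9, against 0.374% of genes tested), for example Cacna2d2, a calcium channel subunit, at 12.1 and 6.56 CPM against 0.542 to 1.97 CPM; these were singled out by their values. The node genes Hcn4, the pacemaker channel, and Shox2, a pacemaker transcription factor, had -0.15 ± 0.36 and 0.52 ± 0.54. Shox2 was above the other 8 libraries in both libraries 2 and 3, at 0.985 and 0.921 CPM against 0.0834 to 0.632 CPM, and its log2 fold change was -0.23 ± 0.60 without them and 1.89 without LPS libraries 1, 2 and 3. Tbx3, a repressor of working muscle genes in the node, had -0.11 ± 0.17, and Smoc2 -0.27 ± 0.23.

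Partners of the secreted and regulatory products were also counted. In the natriuretic peptide system without Nppa, 3 of 9 tested were positive and 6 negative (median -0.01; 0 passed, smallest adjusted p = 0.394; 1 higher and 1 lower at an unadjusted p under 0.05; 0 with DESeq2). Nppb, the brain natriuretic peptide precursor and a ventricular stress gene, had 109.7, 63.2, 93.1, 34.0 and 78.1 CPM in baicalin plus LPS, against 32.2, 59.8, 34.9, 45.1 and 58.0 CPM in LPS. Its highest library was baicalin plus LPS 1 and not 2, the groups overlapped, and its log2 fold change of 0.72 ± 0.29 was 0.68 ± 0.35 without libraries 2 and 3. Npr1, the receptor of the peptides, had -0.01 ± 0.11, Npr3, the clearance receptor, 0.63 ± 0.30 with 55.6 CPM in library 2, and Corin, the protease that processes the Nppa product, -0.08 ± 0.17.

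Around Sln, 4 of 8 listed calcium pump and regulin genes were tested, 2 positive and 2 negative, with a median log2 fold change of -0.15 and 0 passing (smallest adjusted p = 0.515; 0 at an unadjusted p under 0.05; 0 with DESeq2). Atp2a2, the pump that sarcolipin inhibits, had -0.33 ± 0.18 (-0.04 without LPS libraries 1, 2 and 3), and Mrln, myoregulin, was below the filter with 0 to 11 counts a library. Around Bmp10, 18 of 19 receptors, partners and targets were tested, 4 positive and 14 negative, with a median of -0.15 and 0 passing (smallest adjusted p = 0.301; 2 lower at an unadjusted p under 0.05; 0 with DESeq2). The receptors Acvrl1 (ALK1), Eng (endoglin) and Bmpr2 had -0.18 ± 0.10, -0.23 ± 0.10 and 0.00 ± 0.09. The targets Id1 and Smad6 had -0.47 ± 0.25 and -0.10 ± 0.16. Gdf2, which encodes the related ligand BMP9, had 0 to 16 counts a library and was below the filter, and Tcap, telethonin, had -0.30 ± 0.24. Of 13 other myosin light chain and kinase genes, 12 were tested, 6 in each direction, with a median of 0.04 and 0 passing (smallest adjusted p = 0.329; 3 lower at an unadjusted p under 0.05; 0 with DESeq2).

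Markers of some other cell types also stood high in libraries 2 and 3. Both libraries were above the other 8 for 10.3% of all genes tested. That share is the background for the marker counts here and in the next paragraph, which include markers below the filter on low counts. Summed levels were 1278 and 1867 CPM for 7 fibroblast markers, against 456 to 817 CPM in the other 8 libraries, and for 6 of the 7 both libraries were highest. Of 8 macrophage markers the sum was 483 and 448 CPM, against 97.9 to 360 CPM (6 of 8), and of 8 endocardial and valve markers 260.3 and 228 CPM, against 114 to 174 CPM (5 of 8). The 8 epicardial and mesothelial markers summed to 70.8 CPM in library 2 but to 18.6 CPM in library 3, against 11.9 to 31.0 CPM, and both were highest for 0 of 8. Of 9 fat markers both were highest for 6. However, 5 of the 9 passed the filter on low counts, and both were highest for 3 of those. Adipoq (adiponectin) was at 2.26 and 3.07 CPM against 0.0613 to 0.403 CPM. The sum of the fat markers, 379 and 461 CPM against 445 to 1167 CPM, did not follow. Nerve and ganglion markers summed to 17.1 and 12.3 CPM, against 6.75 to 14.8 CPM, and skeletal muscle markers to 158 and 166 CPM against 183 to 248 CPM. No marker was at 0 in all libraries. The part of these cell types in the levels of the atrial muscle genes was not tested.

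By group, the summed fibroblast markers ran from 456 to 1867 CPM in baicalin plus LPS and from 490.2 to 749 CPM in LPS, the macrophage markers from 147 to 483 CPM in baicalin plus LPS and from 97.9 to 305 CPM in LPS, and the endocardial and valve markers from 136 to 260.3 CPM in baicalin plus LPS and from 114 to 173 CPM in LPS. Sums over endothelial (532 to 809 CPM in baicalin plus LPS, 634 to 919 CPM in LPS), smooth muscle (1767 to 2140 CPM in baicalin plus LPS, 1707 to 2847 CPM in LPS) and erythroid markers (21.5 to 72.7 CPM in baicalin plus LPS, 13.2 to 487 CPM in LPS) overlapped as well, and libraries 2 and 3 were both highest for 1 of 8, 1 of 7 and 0 of 6 of them. Thymus markers summed to 2.65 and 2.24 CPM in libraries 2 and 3, against 1.04 to 1.61 CPM elsewhere, with both highest for Cd8b1 and Cd1d1. Of the 6 thymus markers listed, 1 passed the filter on low counts. Lung and airway markers summed to 4.44 CPM or less in every library, with both highest for 0 of the 7 that had a row.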

How the data were processed

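The authors deposited raw counts and FPKM values per gene for 10 cardiac RNA-seq libraries, 5 per group; libraries were made from TRIzol RNA with an mRNA library kit, per the labels' protocols, and reads were aligned to build mm10, per the submitters' processing notes. Aligner, counter and strand use: not given in the sources used here. Each deposited FPKM equalled the count divided by gene length and library total (largest relative deviation 4.37e-13). From 61.6 to 64.7% of counts between 1 and 50 were even, so counts may hold both mates of a fragment. Symbols came from GENCODE M21 and named 31076 of 31655 rows. Levels are TMM-scaled CPM, and log2 levels for correlations used a prior count of 2. Groups were compared with edgeR's quasi-likelihood test (edgeR 4.0.16, R 4.3.3; TMM, robust, filterByExpr by group), two-sided, with Benjamini-Hochberg adjustment over 16850 genes at 0.05; the biological coefficient of variation was 31.4%. DESeq2 1.42.0 and limma 3.58.1 were alternatives. The steps were tested on simulated counts. All pairs of libraries within a group differed by more than counting noise (chi-square per gene at least 15.2, lowest for LPS 1 and 3). Pairs across the groups were not checked.

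The members and gene lists were chosen with earlier results of these data known. The genes named are the 5 members, a set of genes listed by symbol whatever their values, and the 10 genes of highest mean Pearson's r with the members among tested genes with a mean of at least 1 CPM and a regular symbol; others are said to be chosen by value. Of those 10, 1 is not reported here. A level over the median of the other 8 libraries sets baicalin plus LPS libraries 2 and 3 against the rest. Promoters came from RefSeq for 4 of 5 members.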

Additional observations from a re-analysis of the deposited data

Results flagged for a closer look

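A gap test was run on the CPM values of 96 sets of 5 libraries (the members, named genes and genes of highest likeness in each group). A value is picked out when its gap to its nearest neighbour exceeds 0.71 of the range of its group. CPM is not a log scale, so high values weigh more in the gap than on the log2 scale used for fold changes. Of them 14 were picked out, 9 with baicalin plus LPS library 2 as the highest. Chance would pick out about 1 in 20 sets, or 4.8, but the members and the genes most like them were selected for standing high in that library, so the count cannot be read against chance. For the atrial muscle genes the gap share of library 2 was 0.804 for Sln, 0.796 for Myl7, 0.777 for Myl4, 0.819 for Bmp10 and 0.733 for Nppa. Library 2 was also far above its group for the atrial genes Mybphl (0.797), Sbk2 (0.912), Gja5 (0.756) and Stard10 (0.909). The sets are not independent, since they hold the same libraries.

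Among LPS libraries, library 4 was far above the rest for Myl7 (0.727) and Acvrl1 (0.769) and far below for Camk1d (0.718). LPS library 5 was far above for Tbx3 (0.766) and far below for Eng (0.917).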

How the results depend on the processing

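The log2 fold changes of the 5 atrial muscle genes stayed positive under every scaling, filter and tool tried (Sln and Bmp10 did not pass a filter of 10 counts in every library), and changed with libraries 2 and 3. Without both they were -0.23 for Sln, 0.25 for Myl7, 0.12 for Myl4, 0.68 for Bmp10 and 0.23 for Nppa, with Sln changing sign, and the median of other atrial genes was -0.05. Leaving out 1 library at a time they ran from 3.70 to 6.4 for Sln, 2.94 to 5.46 for Myl7, 2.84 to 5.12 for Myl4, 3.86 to 6.43 for Bmp10 and 0.58 to 1.71 for Nppa, each lowest without baicalin plus LPS library 2. Log-scale fits gave smaller values: limma-voom 3.09 for Sln; limma-voom with quality weights 2.56 for Sln, 2.37 for Myl4 and 3.52 for Bmp10; log2(FPKM + 0.1) 2.53 for Sln, 2.34 for Myl4 and 2.41 for Bmp10; log2(FPKM + 1) 1.70 for Sln, 2.33 for Myl7, 1.62 for Myl4 and 1.22 for Bmp10. Between the FPKM fits, the larger pseudocount gave the smaller values for Sln, Myl4 and Bmp10. Why the log-scale fits as a whole lay below edgeR was not tested.

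Genes called numbered 0 with edgeR, 2 with no filter on low counts, 267 with DESeq2 and 2974 with limma-voom quality weights, which gave 5652 at an unadjusted p under 0.05 against 1878. Without 1 library the calls stayed at 0 and the unadjusted count ran from 1282 to 3112, the highest without LPS library 4. Among other atrial genes DESeq2 called 4 and the quality weights 5; among ventricular genes 1 and 6; over the 8 lists 6 and 28. Of the 10 genes of highest likeness, 0 were shared by Spearman's rho and 4 by r of residuals from group means. The median of ventricular genes was 0.07 on library totals, -0.04 with TMM. For single named genes, 956 alternative values moved by less than the spread between libraries and 31 by more, mostly without baicalin plus LPS libraries 2 and 3 or without LPS libraries 1, 2 and 3.

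Same-numbered libraries did not deviate together (correlations -0.10, 0.08, -0.04, and 0.05 for number 5), so the numbers were not taken to pair them. With the replicate number as a block, 0 genes were called and 2546 had an unadjusted p under 0.05; log2 fold changes were 4.97 for Sln, 3.72 for Myl7, 3.38 for Myl4, 5.10 for Bmp10 and 1.08 for Nppa. Depth limits Sln and Bmp10, with 4 to 32 counts in 8 libraries, more than it limits Nppa.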

Other observations

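The next count covered all 13217 genes with a mean of at least 1 CPM, the atrial genes included. Of these, 43 were at least 2-fold above the other 8 libraries in both baicalin plus LPS libraries 2 and 3. A further 16 were at least 2-fold below the other 8 in both. The genes named in this paragraph and the next were picked by their values, and no test was made. Ordered by the smaller of the 2 ratios to the highest other library, Bmp10 came first at 26.7, followed by Sln at 24.3, Myl4 at 16.3, Mybphl at 15.9, Myl7 at 12.4 and Dkk3 at 7.16. Matrix genes were also among the 43: Postn, periostin, had 58.5 and 141 CPM in libraries 2 and 3 against 7.59 to 25.0 CPM, and Comp, cartilage oligomeric matrix protein, 4.60 and 6.25 CPM against 0.278 to 1.24 CPM. Their order differed from that of the atrial muscle genes, since library 3 was above library 2. H19, an imprinted noncoding RNA, had 112 and 81.5 CPM against 9.75 to 24.4 CPM, and Scd1, a fatty acid desaturase, 54.8 and 50.3 CPM against 8.29 to 20.5 CPM.

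In the other direction, Pdk4, the kinase that inhibits pyruvate dehydrogenase, had 142 and 105 CPM in libraries 2 and 3 against 1090 to 3948 CPM. Ucp3, a mitochondrial carrier induced with fatty acid use, had 16.6 and 9.06 CPM against 72 to 318 CPM. Angptl4, an inhibitor of lipoprotein lipase, had 1.97 and 2.71 CPM against 5.65 to 144 CPM. For Pdk4 and Ucp3 library 3 was the lower of the pair, and for Angptl4 library 2 was.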
